A study of Mus musculus with 8 samples.

Results

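The 10 genes that bear on the mitochondrial content and fuel use of muscle and were followed here, in quadriceps of mice with a muscle deletion of Gpcpd1, are the coactivator genes Ppargc1a and Ppargc1b, the nuclear receptor genes Esrra, Esrrg, Ppara and Ppard, the muscle regulator gene Perm1, the transcription factor genes Nrf1 and Tfam, and Mss51. They were taken by symbol, and all 10 were found among the 54532 genes of the count tables and all 10 were among the 10691 genes with enough reads to test. The knockout group held 4 libraries from mice labelled MckCre Gpcpd1, with both Gpcpd1 alleles floxed and a Cre transgene driven by the muscle creatine kinase promoter. The control group held 4 libraries from mice with both alleles floxed and no Cre, so effects of Cre and of Gpcpd1 loss cannot be told apart. All mice were 3 months old and on chow, and the RNA came from whole quadriceps, so fewer cells of a type and less RNA per cell cannot be told apart. Reads came from QuantSeq, a 3′ mRNA assay that reads the polyadenylated end of each transcript, and levels are given as CPM, reads scaled to a common TMM-adjusted library total.

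Mitochondrial biogenesis in muscle is run by coactivators that do not bind DNA themselves. PGC-1α and PGC-1β, encoded by Ppargc1a and Ppargc1b, dock on estrogen-related receptors (Esrra, Esrrg), on PPAR receptors (Ppara, Ppard), which sense fatty acids, and on nuclear respiratory factor 1 (Nrf1). The receptors switch on genes of the respiratory chain and of fat oxidation, and nuclear respiratory factors switch on Tfam, whose product packages and transcribes mitochondrial DNA. Perm1 is induced in muscle by PGC-1 and ERR and acts with them. Mss51 encodes a mitochondrial zinc finger protein found mainly in skeletal muscle. Its yeast namesake activates translation of the complex IV subunit COX1. In mouse muscle Mss51 lies downstream of myostatin signalling, and mice without it are reported to have more oxidative metabolism.

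The sequence before the Mss51 start is shown because Mss51 was the member with the largest difference. It is the 250 bases before the transcription start in RefSeq, build GRCm38.p6, chr14:20496902-20497151, minus strand, 5′ to 3′. Capitals mark GTCTAGAC, the palindromic SMAD binding element, whose first base lay 222 bases before the start.
Mss51: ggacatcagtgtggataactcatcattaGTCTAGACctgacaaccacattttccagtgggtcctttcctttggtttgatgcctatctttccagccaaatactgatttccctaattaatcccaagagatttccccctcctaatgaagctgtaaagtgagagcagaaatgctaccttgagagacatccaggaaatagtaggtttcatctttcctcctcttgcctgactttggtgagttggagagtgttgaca

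RefSeq windows were at hand for 9 members, 13 windows in all, and Ppargc1b was not among them. Besides GTCTAGAC, 4 motifs were searched on both strands. AAGGTCA is the ERR core site, CCGGAAGT an element of the ETS factor GABP, and the palindromic NRF1 element is in capitals in the Ppara line. A loose form of the MEF2 element was taken as CTA and TAG with any 4 bases between them. All were chosen after the members' sequences had been read, so the matches are descriptions only. Each motif was found in 1 of the 13 windows, and the stretches of 30 bases around the other 4 matches follow, in GRCm38.p6, with the motif in capitals.
Tfam, chr10:71238073-71238102, minus strand, CCGGAAGT: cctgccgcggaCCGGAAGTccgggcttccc
Esrrg, chr1:187608974-187609003, plus strand, MEF2 element: taaaactttgCTATTTATAGtctacgcccg
Perm1, chr4:156215714-156215743, plus strand, the reverse complement of AAGGTCA: ggaatccggtgTGACCTTagctaatgccaa
Ppara, chr15:85735735-85735764, plus strand, NRF1 element: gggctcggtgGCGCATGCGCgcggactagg
Of 32851 windows of the same length, 0.167% held GTCTAGAC, 4.08% AAGGTCA, 0.782% the NRF1 element, 2.88% CCGGAAGT and 3.2% the loose MEF2 form. In the Esrrg match the 4 middle bases are all A or T, and windows with only A or T there were not counted apart. The Esrrg match was in 1 of its 4 windows, and the reads do not show which start was used.

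Library totals ran from 4806806 to 5405999 reads in knockouts and from 4404116 to 5183079 in controls, and no pair of libraries agreed within sampling noise. The floor of 3 reads, which covers counting error only, stood at 0.557 to 0.646 CPM. The member with the fewest reads in any library had 24, so all 10 lay above it everywhere. Gpcpd1 itself averaged 35.1 ± 3.45 CPM in knockouts and 149.7 ± 10.7 CPM in controls (SD, n = 4 each). Its reads, at the 3′ end, may come from beyond the floxed exons, and the source of those left in knockouts was not tested. The first principal component, with 40.5% of the variance, separated the genotypes.

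Of the 10 members, Mss51 fell, Tfam and Esrrg rose, and 7 did not pass the threshold of 0.05 on the adjusted p of edgeR's quasi-likelihood test. Over all tested genes 15.7% passed, 8.87% higher and 6.8% lower. That balance turned with scaling: 948 genes were higher and 727 lower with TMM, and 829 higher and 901 lower with library totals alone. The median log2 fold change of the members was 0.05, against 0.01 over all tested genes. In 2 of the 10, Mss51 and Esrrg, the groups did not overlap, as in 19.2% of all tested genes. The number of members that rose was 1 without knockout 1 or 2 and 0 without knockout 4, control 3 or control 4.

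**Figure D1:**
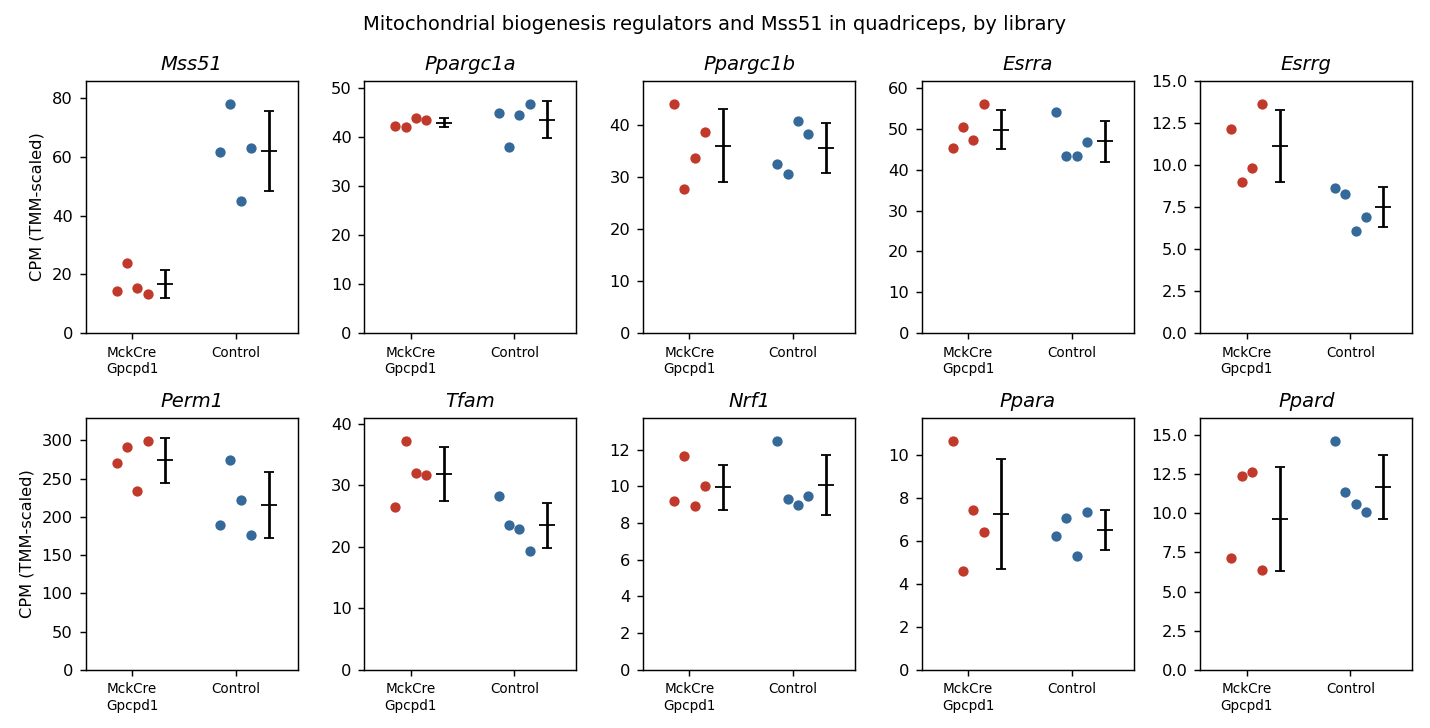
CPM of each of the 10 genes (vertical axes, each starting at 0) in the 4 MckCre Gpcpd1 and 4 Control libraries; dots are libraries, the bars beside them mean ± SD. Mss51 lies at 13.4 to 23.9 CPM in knockouts, below all controls at 44.8 to 78.0 CPM, while Ppargc1a and Ppargc1b overlap between the groups.

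Mss51 (ENSMUSG00000021815, GRCm38 chromosome 14, 20482867 to 20496901, minus strand) had 14.2, 23.9, 15.4 and 13.4 CPM in knockouts 1 to 4, against 61.8, 78.0, 44.8 and 63.1 CPM in controls 1 to 4. These rest on 68, 125, 83 and 63 reads in knockouts and 287, 385, 229 and 300 in controls. The highest knockout lay well below the lowest control. Mss51 averaged 16.7 ± 4.82 CPM in knockouts and 61.9 ± 13.6 CPM in controls (SD, n = 4 each), so that the knockout mean was 27.0% of the control mean. Its log2 fold change was -1.88 (SE 0.20, 95% interval -2.30 to -1.45, edgeR adjusted p = 2.6e-05). By fold change it ranked 4 among the 727 genes that fell. Under 17 alternatives the value ran from -2.10 to -1.76, and each passed the threshold. No other annotated gene overlaps Mss51 in GENCODE M21.

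The genes most like Mss51 were those with the smallest root mean square difference from it in log2 level relative to the control mean, over the 8 libraries and among 9654 genes. They were Gpcpd1 (0.315), the serine/threonine kinase gene Pim1 (0.348), the histone gene Hist1h4i (0.392), the spindle gene Tpx2 (0.445) and the potassium channel gene Kcng4 (0.453). Pim1 had 6.49, 11.5, 8.73 and 6.83 CPM in knockouts 1 to 4, against 23.7, 23.3, 23.9 and 24.4 CPM in controls 1 to 4. In both Mss51 and Pim1, knockout 2 was the highest of the knockouts. Pim1 was picked for likeness over these same 8 libraries, so the shared order is no separate result. All of the genes named fell, with log2 fold changes from -2.09 to -1.49, and the measure of likeness includes that shared fall. Among controls, Mss51 ranged more widely than Pim1, whose control values lay between 23.3 and 24.4 CPM. Histone genes have near-identical copies, so the count of Hist1h4i is uncertain. Tpx2 lay at only 1.05 to 2.35 CPM in knockouts, not far above the floor of 3 reads.

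**Figure D2:**
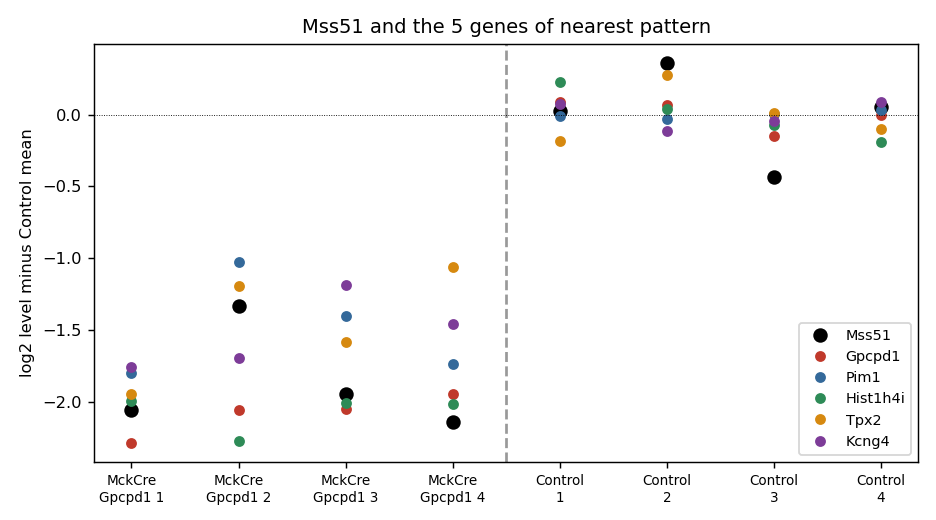
Log2 level relative to the Control mean (vertical axis) of Mss51 and the 5 genes of nearest pattern in each library (horizontal axis, MckCre Gpcpd1 libraries left of the dashed line). Dots are libraries; Mss51 lies at -2.06, -1.33, -1.94 and -2.14 in knockouts 1 to 4.

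The coactivator genes gave values near those of controls. Ppargc1a (ENSMUSG00000029167), the main inducible coactivator, had 42.1, 42.0, 43.8 and 43.3 CPM in knockouts 1 to 4, against 44.8, 37.9, 44.4 and 46.7 CPM in controls 1 to 4. The knockouts lay inside the range of the controls. Its log2 fold change was -0.02 with a 95% interval of -0.22 to 0.18 (edgeR adjusted p = 0.924). The counts are per gene, so the transcript variants of Ppargc1a were not separated. Ppargc1b (ENSMUSG00000033871), its close relative, had 44.0, 27.7, 33.6 and 38.6 CPM in knockouts 1 to 4, against 32.5, 30.6, 40.7 and 38.3 CPM in controls 1 to 4. The knockouts spread on both sides of the controls, and the log2 fold change was 0.01 with an interval of -0.26 to 0.28 (edgeR adjusted p = 0.962).

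The ERR genes differed in their calls. Esrrg (ENSMUSG00000026610), the receptor linked to oxidative fibres, had 12.1, 8.98, 9.85 and 13.7 CPM in knockouts 1 to 4, against 8.62, 8.31, 6.07 and 6.94 CPM in controls 1 to 4. Every knockout was above every control, with the lowest knockout close to the highest control. The log2 fold change was 0.57 (SE 0.19, 95% interval 0.19 to 0.95, edgeR adjusted p = 0.0372), on 31 to 64 reads a library. The call ended by DESeq2 (adjusted p = 0.0863), by limma voom (0.0510) and with library totals alone (0.0580), and in edgeR without knockout 1 (0.0840), knockout 4 (0.158), control 3 (0.139) or control 4 (0.0838). Esrra (ENSMUSG00000024955), the more widely expressed receptor, had 45.2, 50.4, 47.4 and 56.1 CPM in knockouts 1 to 4, against 54.1, 43.4, 43.5 and 46.9 CPM in controls 1 to 4. The groups overlapped, and the log2 fold change was 0.09 with an interval of -0.13 to 0.30 (edgeR adjusted p = 0.638). Esrra shares 73 exon bases with Trmt112 on the opposite strand, and whether the counting used strand is not given in the sources used here, so its count is less certain.

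Perm1 (ENSMUSG00000078486) had 270.4, 290.8, 234.5 and 299.7 CPM in knockouts 1 to 4, against 190.0, 274.5, 222.0 and 176.8 CPM in controls 1 to 4. Control 2 lay above 2 of the knockouts, so the groups overlapped. Perm1 averaged 273.9 ± 28.98 CPM in knockouts and 215.8 ± 43.5 CPM in controls (SD, n = 4 each), with a log2 fold change of 0.34 (SE 0.12, 95% interval 0.09 to 0.59) that missed the threshold (edgeR adjusted p = 0.0579). It passed without control 2 (adjusted p = 0.00159), without knockout 3 (0.0272), with library totals alone (0.0333), by limma voom (0.0443) and without a low-count filter (0.00567). Over all 17 alternatives the adjusted p ran up to 0.172.

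Tfam (ENSMUSG00000003923) had 26.4, 37.2, 31.96 and 31.6 CPM in knockouts 1 to 4, against 28.2, 23.5, 22.9 and 19.3 CPM in controls 1 to 4. Knockout 1 lay below control 1, and the other knockouts lay above all controls. Tfam averaged 31.8 ± 4.43 CPM in knockouts and 23.5 ± 3.65 CPM in controls (SD, n = 4 each). The log2 fold change was 0.44 (SE 0.13, 95% interval 0.17 to 0.71, edgeR adjusted p = 0.0217). The call ended without knockout 2 (adjusted p = 0.103), knockout 4 (0.0530), control 3 (0.0647) or control 4 (0.0840), and held under the 9 alternatives that kept all libraries. Nrf1 (ENSMUSG00000058440), the gene of nuclear respiratory factor 1 and not of the similarly named Nfe2l1 product, had 9.22, 11.6, 8.92 and 10.0 CPM in knockouts 1 to 4, against 12.5, 9.32, 9.01 and 9.46 CPM in controls 1 to 4. The groups overlapped, and the log2 fold change was -0.01 with an interval of -0.37 to 0.34 (edgeR adjusted p = 0.973).

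The PPAR genes varied more between knockouts than between controls. Ppara (ENSMUSG00000022383), which drives fat oxidation, had 10.7, 4.58, 7.43 and 6.40 CPM in knockouts 1 to 4, against 6.25, 7.09, 5.29 and 7.36 CPM in controls 1 to 4. Knockout 1 was the highest of the 8 libraries and knockout 2 the lowest. Ppard (ENSMUSG00000002250), the PPAR gene most expressed in muscle by common account, had 7.12, 12.4, 12.6 and 6.40 CPM in knockouts 1 to 4, against 14.6, 11.4, 10.6 and 10.1 CPM in controls 1 to 4. Knockouts 1 and 4 lay below all controls, and knockouts 2 and 3 among them. The log2 fold change was 0.16 for Ppara (95% interval -0.32 to 0.63, edgeR adjusted p = 0.705) and -0.26 for Ppard (95% interval -0.68 to 0.17, edgeR adjusted p = 0.455).

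The spread between libraries can be set beside counting error. The coefficient of variation of Ppara was 35.2% in knockouts and 14.4% in controls, where counting alone gives 16.6% and 17.8%. For Ppard it was 34.7% in knockouts and 17.6% in controls, against 14.2% and 13.3% from counting. Ppargc1a varied by 2.11% in knockouts and 8.80% in controls, against 6.82% and 6.88% from counting. Perm1, with the most reads of the 10, varied by 10.6% in knockouts and 20.1% in controls, against 2.70% and 3.08%. In both groups 8 of the 10 members varied by more than counting gives.

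**Figure D3:**
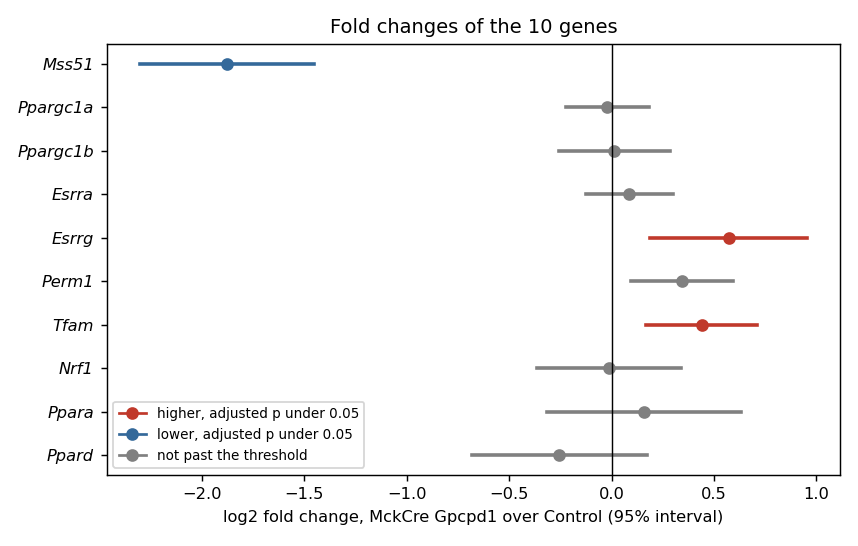
Log2 fold change of the 10 genes, MckCre Gpcpd1 over Control (horizontal axis); dots are edgeR estimates, lines their 95% intervals, and colour the call. Mss51 stands alone at -1.88; the intervals of Esrrg, Perm1 and Tfam lie above 0, and only Perm1 of these misses the adjusted threshold.

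Whether related genes moved unequally was asked with the log2 ratio of their CPM within each library, after adding 0.5 CPM to each gene. The log2 ratio of Esrra to Esrrg was 1.85, 2.43, 2.21 and 2.0 in knockouts 1 to 4, against 2.58, 2.32, 2.74 and 2.67 in controls 1 to 4. Knockout 2 lay above control 2, and the other knockouts lay below all controls. The knockout mean was lower by a difference of -0.46, or -0.48 and -0.38 with 0.1 and 2 CPM added, with an exact two-sided permutation p = 0.0571, or 0.171 adjusted over the 3 ratios compared. The smallest p possible with 4 against 4 libraries is 0.0286. The ratio of Ppargc1a to Ppargc1b averaged 0.27 ± 0.28 in knockouts and 0.29 ± 0.14 in controls on the log2 scale (SD, n = 4 each), a difference of -0.02 (exact permutation p = 0.886). The ratio of Ppara to Ppard was 0.55, -1.34, -0.73 and 0.00 in knockouts 1 to 4, against -1.17, -0.64, -0.94 and -0.43 in controls 1 to 4. Knockouts 1 and 4 lay above all controls, and the difference of 0.41 did not pass (exact permutation p = 0.4, adjusted p = 0.6).

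**Figure D4:**
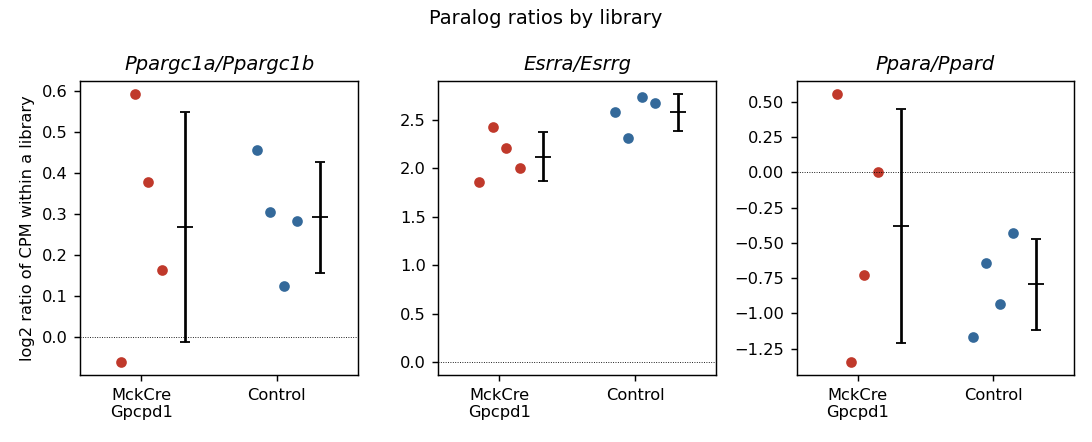
Log2 ratio of CPM of 3 pairs of related genes within each library (vertical axes, each panel with its own range), MckCre Gpcpd1 left of Control; dots are libraries, bars mean ± SD. The Esrra to Esrrg ratio averages 2.12 in knockouts and 2.58 in controls, with 1 knockout among the controls.

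Partner factors of the members fell more often than they rose. Of 37 tested coregulators and partner factors 9 were lower and 1 higher, with a median log2 fold change of -0.06, against 0.01 over all tested genes. Together 27% were called, against 15.7% of all tested genes, of which 6.8% were lower and 8.87% higher. Rxra, the gene of the retinoid X receptor that pairs with PPARs on DNA, averaged 174.7 ± 8.80 CPM in knockouts and 231.5 ± 20.4 CPM in controls (SD over 4 libraries each, log2 fold change -0.41, SE 0.08). Lpin1, a coactivator of Ppara and PGC-1α as well as a lipid phosphatase, averaged 352.5 ± 22.3 CPM in knockouts and 468.3 ± 48.4 CPM in controls (log2 fold change -0.41, SE 0.09). Yy1, which recruits PGC-1α to mitochondrial genes (-0.53, SE 0.11), and Flcn, whose product restrains PGC-1α and the factors TFEB and TFE3 (-0.55, SE 0.14), fell on the log2 scale too. The groups of these 4 genes did not overlap, as in 19.2% of all tested genes. The 4 were named for the lowest p in the list, so this was nearly fixed by the choice.

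Gabpa, the gene of the DNA-binding GABP subunit, was chosen after its values were seen. It averaged 4.51 ± 0.873 CPM in knockouts and 7.82 ± 1.30 CPM in controls (SD over 4 libraries each, log2 fold change -0.79, SE 0.21, edgeR adjusted p = 0.0125). Gabpa had 16 to 29 reads in a knockout library and 31 to 46 in a control library. Gabpa thus fell where Tfam rose, and whether the changes are linked was not tested. The 1 higher partner, Esrrb, the third ERR gene, averaged 4.67 ± 1.44 CPM in knockouts and 2.44 ± 1.09 CPM in controls, and its groups overlapped (log2 fold change 0.94, SE 0.32). Esrrb had 18 to 35 reads in a knockout library and 6 to 17 in a control library. The count of higher partners was 0 without knockout 1, 2 or 4 and without control 3 or 4.

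Among 21 tested genes that transcribe, copy and process mitochondrial DNA, 2 were higher and 1 lower, and the median was 0.16. The share called, 14.3%, was near the 15.7% of all tested genes. Tefm, which lets the mitochondrial polymerase elongate, averaged 5.397 ± 1.99 CPM in knockouts and 2.42 ± 0.239 CPM in controls (SD over 4 libraries each, log2 fold change 1.15, SE 0.29). It rests on few reads, 16 to 35 in a knockout library and 11 to 13 in a control library. Mterf2, a mitochondrial transcription factor of the MTERF family, rose (0.70, SE 0.19), and Mgme1, an exonuclease of mitochondrial DNA replication, fell (-0.54, SE 0.17). The number of higher genes was 1 without control 3, and the number of lower genes was 0 without knockout 1, 3 or 4 or control 1 or 3. None of the 6 tested genes encoded in mitochondrial DNA passed by edgeR, DESeq2 or limma voom, and 1, mt-Co1, had an unadjusted edgeR p under 0.05. Their median log2 fold change was -0.12, and 0 of the 6 lay above 0. The 13 listed genes encoded in mitochondrial DNA held only 0.103% to 0.145% of a library's reads, and 4 of them had 0 reads throughout. Whether these counts follow the level of mitochondrial RNA was not tested. The COX1 gene mt-Co1 averaged 16.3 ± 3.42 CPM in knockouts and 20.98 ± 3.98 CPM in controls (SD over 4 libraries each, log2 fold change -0.37, SE 0.16, edgeR adjusted p = 0.125). The cytochrome b gene mt-Cytb had a log2 fold change of -0.13 (SE 0.10). Without knockout 1, 2 of these genes were lower, and 1 was without knockout 3 or control 2.

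Genes that ERR and PGC-1 are known to induce were called in 1 direction: 10 of 49 tested were higher and 0 lower by edgeR. That is 20.4% called, against 15.7% of all tested genes. At an unadjusted p under 0.05 the counts were 21 and 0, and neither DESeq2 nor limma voom called any lower. In all, 42 of the 49 had a log2 fold change above 0, or 85.7%, against 50.9% of all tested genes. The median was 0.18. The upward lean was not particular to this list: fibre genes had 85.7% above 0 too, with a median of 0.24. Above 0 were also 73.9% of complex IV genes, 71.4% of PPAR targets and 71% of fusion and import genes. The shares were 37.8% for coregulators, 36.8% for myostatin genes and 0 for mitochondrially encoded genes. Myoglobin (Mb), which stores oxygen in oxidative fibres, averaged 5393 ± 1044 CPM in knockouts and 2958 ± 338 CPM in controls (SD over 4 libraries each, log2 fold change 0.87, SE 0.12). The complex IV subunit gene Cox6a2 averaged 1596 ± 159 CPM in knockouts and 1162 ± 130 CPM in controls (log2 fold change 0.46, SE 0.09). The ATP synthase subunit gene Atp5g3 rose too (0.42, SE 0.09). The summed level of the 49 genes lay at 32368 to 39629 CPM in knockouts and 27437 to 32066 CPM in controls. The groups are kept apart by Mb, which lies in the fibre list too: without it, the sum of the other 48 genes was 28285 to 33512 CPM in knockouts and 24652 to 28615 CPM in controls, and knockout 3 lay below control 2. Without knockout 4 the number of higher genes was 6.

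PPAR targets, which mostly serve fat uptake and oxidation, had 7 of 35 tested genes higher and 1 lower, with a median of 0.09. Thus 22.9% were called, against 15.7% of all tested genes. At an unadjusted p under 0.05 the counts were 11 and 3, and 25 of the 35 lay above 0. The carnitine carrier gene Slc25a20 averaged 52.9 ± 4.95 CPM in knockouts and 37.3 ± 0.751 CPM in controls (SD over 4 libraries each, log2 fold change 0.50, SE 0.10). The β-oxidation genes Eci1 (0.76, SE 0.11) and Hadh (0.45, SE 0.09) and the fatty acid carrier gene Fabp3 (0.55, SE 0.11) rose as well. Ucp3, the muscle uncoupling protein gene, was the 1 called lower, and was named for that after its value was seen. It averaged 46.0 ± 9.07 CPM in knockouts and 72.0 ± 11.6 CPM in controls (log2 fold change -0.65, SE 0.13). The number of lower genes was 3 without knockout 1 and 2 without knockout 4, control 2 or control 3.

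Genes of complex IV assembly and COX1 translation, the step that Mss51 serves in yeast, had 4 of 23 tested members higher and 1 lower. Their median was 0.15, and 21.7% were called, against 15.7% of all tested genes. Cox19 averaged 28.8 ± 1.78 CPM in knockouts and 19.3 ± 1.82 CPM in controls (SD over 4 libraries each, log2 fold change 0.58, SE 0.12). Cox20, a chaperone of the COX2 subunit (0.47, SE 0.11), and Higd1a (0.47, SE 0.15) rose, and Cox14, which acts on newly made COX1, fell (-0.27, SE 0.08). The number of higher genes was 2 without knockout 2 or 4 or control 1 or 3, and that of lower genes 0 without knockout 1, 3 or 4 or control 2 or 3.

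Genes of mitochondrial fusion, fission and protein import had 6 of 31 tested members higher and 0 lower by edgeR, with a median of 0.21. This share of 19.4% called stands beside 15.7% of all tested genes. At an unadjusted p under 0.05 the counts were 10 and 1, and neither DESeq2 nor limma voom called any lower. Mief2, which recruits the fission GTPase, averaged 104.2 ± 10.4 CPM in knockouts and 74.7 ± 3.51 CPM in controls (SD over 4 libraries each, log2 fold change 0.48, SE 0.09). The inner membrane protease gene Oma1 (0.48, SE 0.10), the import channel gene Timm17a (0.35, SE 0.08) and the outer membrane channel gene Vdac3 (0.35, SE 0.10) rose too. The number of higher genes was 3 without control 3, and 1 gene was lower without knockout 1 and with library totals alone.

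**Figure D5:**
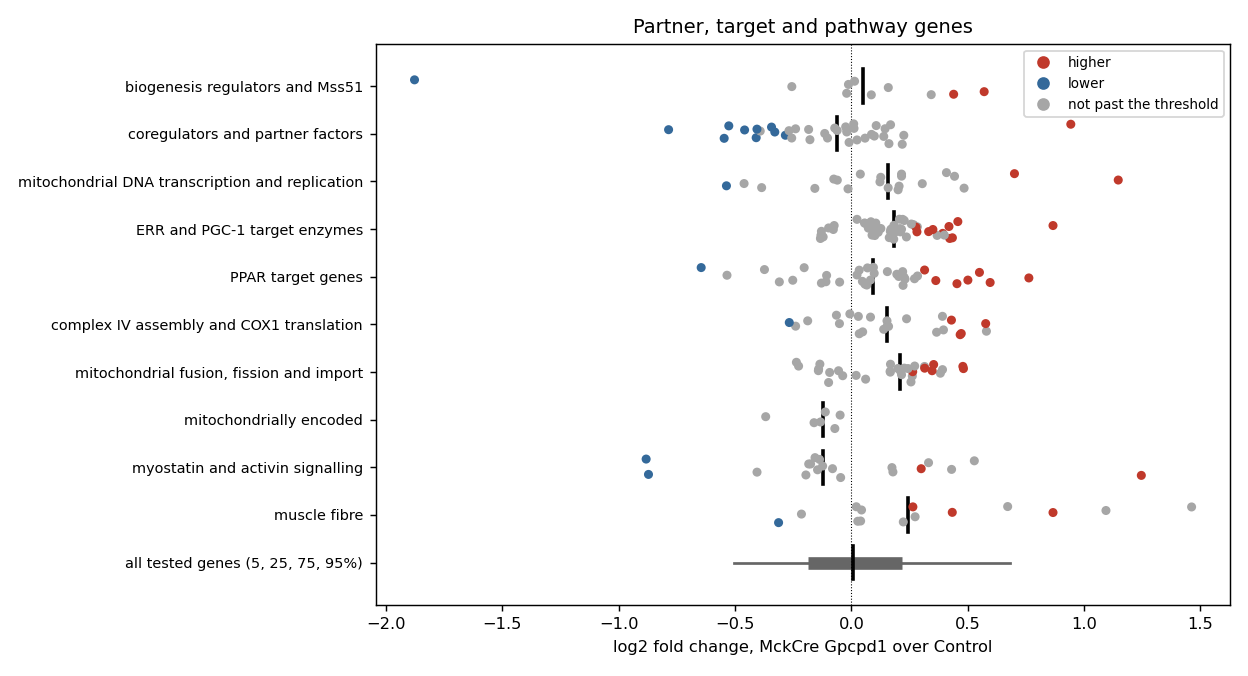
Log2 fold change, MckCre Gpcpd1 over Control (horizontal axis), of the tested genes of each list (rows); dots are genes coloured by call, black ticks medians. The bottom row gives all tested genes, the thick bar from -0.19 to 0.22 (25th to 75th percentile) and the thin bar from -0.50 to 0.68 (5th to 95th).

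Myostatin and activin signalling, which lies upstream of Mss51, had 2 of 19 tested members higher and 2 lower, with a median of -0.12. In all, 21.1% were called, against 15.7% of all tested genes. Smad2, which carries the myostatin signal to the nucleus together with Smad4, averaged 4.64 ± 0.865 CPM in knockouts and 8.52 ± 1.18 CPM in controls (SD over 4 libraries each, log2 fold change -0.87, SE 0.21). Gdf11, the ligand gene closest to myostatin, fell (-0.88, SE 0.14), while Fstl3, an inhibitor of these ligands (1.25, SE 0.30), and Tgfb2 (0.30, SE 0.09) rose. The number of higher genes was 1 without knockout 1 or 4 or control 1, 3 or 4. The part of myostatin signalling in the fall of Mss51 was not tested.

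Fibre genes are given beside the members. Of 14 tested fibre genes 3 were higher and 1 lower, with a median of 0.24. That is 28.6% called, against 15.7% of all tested genes. Besides Mb, the fast light chain gene Mylpf (log2 fold change 0.43, SE 0.09) and the skeletal actin gene Acta1 (0.26, SE 0.09) rose. The fast myosin gene Myh4 fell, with 38879 ± 2646 CPM in knockouts and 48304 ± 2030 CPM in controls (SD over 4 libraries each, log2 fold change -0.31, SE 0.09). The number of higher genes was 5 without control 2, and that of lower genes 2 without knockout 1. The part of fibre makeup in the members' values was not tested.

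Markers of other cells in whole muscle were counted in the same way. The share called was 37.5% of macrophage, 20% of fibro-adipogenic progenitor and 11.1% of adipocyte markers, against 15.7% of all tested genes. Macrophage markers had 3 of 8 tested members lower, a summed level of 66.5 to 110.8 CPM in knockouts and 95.01 to 154.8 CPM in controls, and none of the 10 listed at 0. Fibro-adipogenic progenitor markers had 2 of 10 lower, a summed level of 940.5 to 1251 CPM in knockouts and 1200 to 1468 CPM in controls, and none at 0. Adipocyte markers had 1 of 9 tested members higher, Car3, which muscle fibres also express. Without Car3 their summed level was 352.6 to 421.2 CPM in knockouts and 252.2 to 454.3 CPM in controls, and Ucp1 was at 0. No endothelial, satellite cell, smooth muscle or nerve marker passed by edgeR, and 1 endothelial and 1 smooth muscle marker had an unadjusted p under 0.05. At that level 4 macrophage and 5 fibro-adipogenic progenitor markers were lower, and 2 adipocyte markers higher. Above 0 lay 0 of 8 macrophage, 2 of 10 fibro-adipogenic progenitor and 6 of 9 adipocyte markers. The part of these cells in the members' values was not tested.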

How the data were processed

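The deposited tables, 1 for each of 8 libraries, hold whole-number read counts by Ensembl gene ID, per the file headers, with no normalization by the authors. For alignment and counting, the submitters' processing notes list Bowtie2 (2.3.4.1), Subread (1.6.2) and featureCounts, and the builds GRCm38 and mm10. Neither annotation release nor strand setting is stated there. Symbols came from GENCODE M21, which named 54409 of 54532 genes. Groups followed the genotype labels and replicates accession order, which pairs nothing. The labels do not say that each library is a separate mouse. The p-values thus set each genotype difference against the spread between libraries, which may be technical.

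Counts were filtered with filterByExpr (minimum 10 reads, total 15), scaled by TMM and tested with edgeR 4.0.16 (robust quasi-likelihood, R 4.3.3), with Benjamini-Hochberg adjustment across the 10691 genes. SE was taken as the absolute log2 fold change over the root of the F statistic. Tested genes held 99.5% to 99.6% of reads. Alternatives used DESeq2 1.42.0, limma 3.58.1 voom, other scalings, other filters, the title number as a covariate and each library left out. Ratios used a prior of 0.5 CPM. CPM of single genes used reads in tested genes as the total, and summed levels used all reads.

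The members and lists were chosen with earlier results of these data known. Of each list, up to 4 changed genes of lowest p were named, or 2 as values where fewer than 2 changed. One gene under this rule is not reported here. Mb, Pdk4, Acadm, Mfn2, Fabp4 and Cidec each stand in 2 lists, and each list's count includes them.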

Additional observations from a re-analysis of the deposited data

Results flagged for a closer look

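Nrf1 stood at 12.5 CPM in control 1, against 9.01 to 9.46 CPM in the other controls. Its gap to the nearest of them was 0.870 of the group's whole range, above Dixon's 95% critical value for 4 values. Of 26 groups of 4 looked at, over the members and their ratios, this was the 1 that stood out, and chance flags about 1 group in 20. Without control 1 the log2 fold change of Nrf1 was 0.10 (edgeR adjusted p = 0.775).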

How the results depend on the processing

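Mss51 kept its direction and call under all 17 alternatives, and Tfam and Esrrg kept their direction. The members higher numbered 1 by DESeq2. With libraries left out in turn, 0 to 3 members were higher and 1 lower, log2 fold changes ran from -2.10 to -1.76 for Mss51, 0.35 to 0.54 for Tfam, 0.45 to 0.66 for Esrrg, 0.26 to 0.47 for Perm1, 0.01 to 0.16 for Esrra, -0.42 to -0.12 for Ppard, -0.0931 to 0.01 for Ppargc1a, -0.10 to 0.12 for Ppargc1b, -0.0997 to 0.10 for Nrf1 and -0.0852 to 0.33 for Ppara. The log2 fold change of Ppargc1b, never called, was -0.0243 with library totals alone, -0.0010 with upper quartile factors, -0.0005 by limma voom and -0.0028 without a low-count filter.

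List counts moved as follows. With library totals alone, 0 coregulators and 2 complex IV genes were higher, and 2 PPAR targets, 1 fusion and import gene and 2 fibre genes lower. With RLE or upper quartile factors 2 PPAR targets were lower. By DESeq2, 0 coregulators, 2 complex IV genes and 1 myostatin gene were higher and 0 mitochondrial DNA genes lower. By limma voom, 0 coregulators, 2 complex IV genes and 6 fibre genes were higher and 0 mitochondrial DNA genes lower, and without robust estimation 0 coregulators were higher. Without a low-count filter, 3 PPAR targets and 1 mitochondrially encoded gene were lower and 1 myostatin gene higher. With at least 5 CPM in 4 libraries, 1 mitochondrial DNA gene and 1 myostatin gene were higher and 2 PPAR targets lower.

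With libraries left out in turn, the higher and lower counts ran from 720 to 967 and 578 to 761 over all genes, 0 to 1 and 8 to 10 for coregulators, 1 to 3 and 0 to 1 for mitochondrial DNA genes, 6 to 13 and 0 for ERR and PGC-1 targets, 5 to 8 and 1 to 3 for PPAR targets, 2 to 4 and 0 to 1 for complex IV genes, 3 to 7 and 0 to 1 for fusion and import genes, 0 and 0 to 2 for mitochondrially encoded genes, 1 to 2 and 2 to 3 for myostatin genes and 2 to 5 and 1 to 2 for fibre genes. The log2 ratio differences ran from -0.13 to 0.0860 for Ppargc1a to Ppargc1b, -0.56 to -0.37 for Esrra to Esrrg and 0.10 to 0.74 for Ppara to Ppard. The causes were not tested. No paired analysis was possible because the genotypes share no replicate numbers in the labels.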

Other observations

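Several genes of this pathway could not be measured in these tables. Cpt1b, the muscle gene of the enzyme that commits fatty acids to mitochondrial oxidation, had 0 reads in all 8 libraries. It shares 2744 exon bases on the same strand with Gm44502 in GENCODE M21, which had 0 reads as well. Of the 13 listed genes encoded in mitochondrial DNA, mt-Nd4l, mt-Co2, mt-Atp6 and mt-Atp8 also had 0 reads in all libraries, and together the 13 held 0.103% to 0.132% of a knockout library's reads and 0.111% to 0.145% of a control library's.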
